A study of Mus musculus with 4 samples.

Results

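The genes described are 9 components of hedgehog reception and transduction, namely the receptor Ptch1, the antagonist Hhip, the signal transducer Smo, the co-receptors Gas1, Boc and Cdon, and the transcription factors Gli1, Gli2 and Gli3. They were chosen by gene symbol and all 9 were found among the 25239 symbols of the count table. RNA was sequenced from hindlimb bud cells of FVB mouse embryos at embryonic day 11.5. Every embryo had a wild-type genotype apart from a reporter at the H11 locus (H11 hsp68-hZRS(404G>A)-mCherry), in which a human ZRS limb enhancer carrying the 404G>A change and the hsp68 promoter drive the red fluorescent protein mCherry. The populations were dissected and sorted: anterior cells were mCherry+ and central cells were mCherry-, with 2 libraries of each, so that domain and reporter activity differ together and cannot be told apart. Posterior cells are not part of the comparison.

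Hedgehog ligands bind Patched, a receptor that in the absence of ligand holds Smoothened inactive. Gas1, Boc and Cdon hold ligand at the cell surface and assist its reception, whereas Hhip binds ligand and competes with the receptor. Active Smoothened, acting in the primary cilium, stops the processing of Gli3 and Gli2 into repressors and favours their activator forms. Ptch1, Gli1 and Hhip are themselves transcribed in response to the signal, and Gas1, Boc and Cdon are known to be repressed by it in several tissues. In the limb bud, Shh from the posterior margin patterns the digits, and Gli3 repressor prevails in anterior mesenchyme. RNA levels do not show which form of a Gli protein is present.

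Of the 9 genes, 6 were lower in anterior cells, 1 was higher and 2 were not called, where a call means that the quasi-likelihood test of edgeR, with Benjamini-Hochberg adjustment over every gene tested, gave an adjusted p-value below 0.05. Hhip, Boc, Gli2, Cdon, Ptch1 and Gli1 fell, in that order of size, and Gli3 rose. Smo and Gas1 were not called. Among all 14610 genes tested, 22.9% were called, 12.3% as lower and 10.7% as higher. The median log2 fold change of anterior over central was -0.54 for the 9 genes and -0.0086 for all tested genes. All 9 passed the filter on low counts. In 7 of the 9 the anterior and central libraries did not overlap, which held for 63.5% of all tested genes. At a stricter threshold of 0.01, passed by 11.6% of all tested genes, 5 of the 9 were called, without Ptch1 and Gli1. In bulk RNA of a sorted population, fewer cells of a type and less RNA per cell cannot be told apart.

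**Figure D1:**
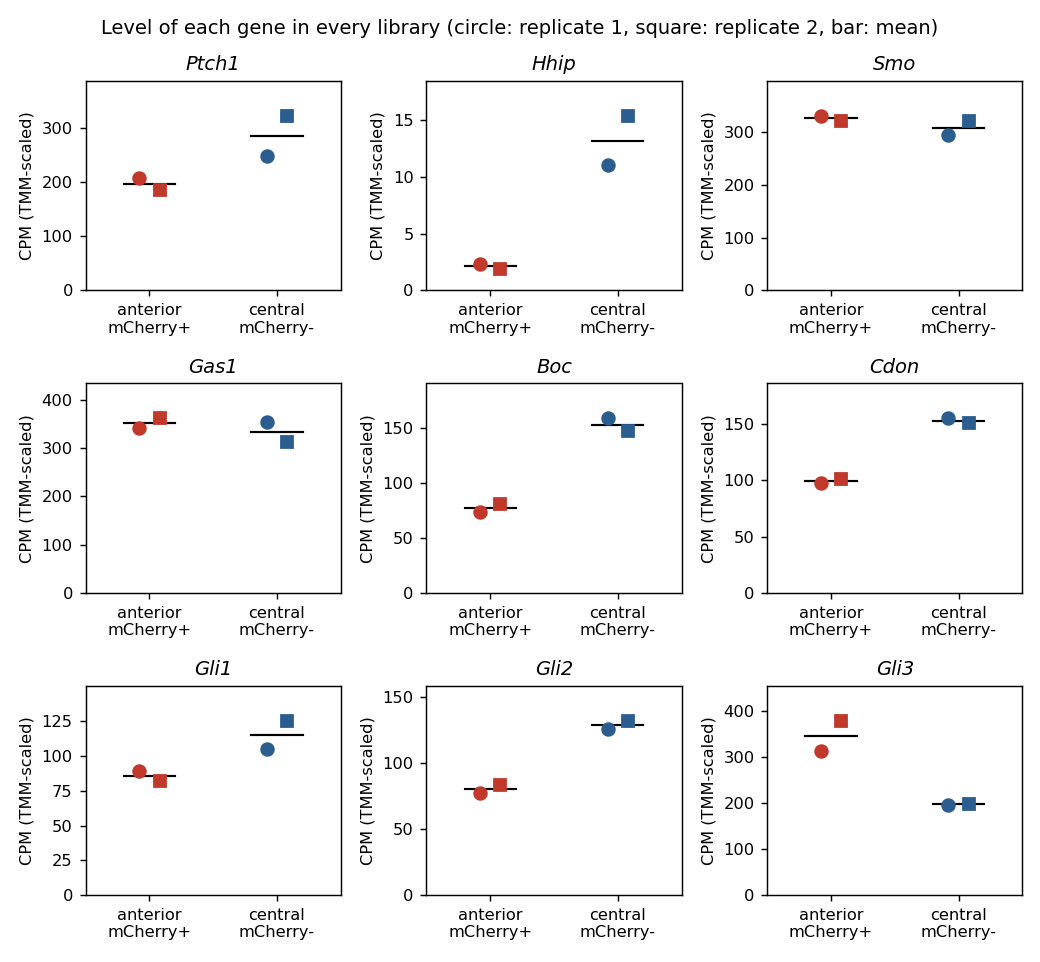
Level of each of the 9 genes in every library, in TMM-scaled counts per 1 M counts (CPM) on linear axes from 0, with anterior mCherry+ and central mCherry- cells side by side. Circles are replicate 1, squares are replicate 2 and bars are means; anterior and central points are apart for 7 genes and overlap for Smo and Gas1.

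**Figure D2:**
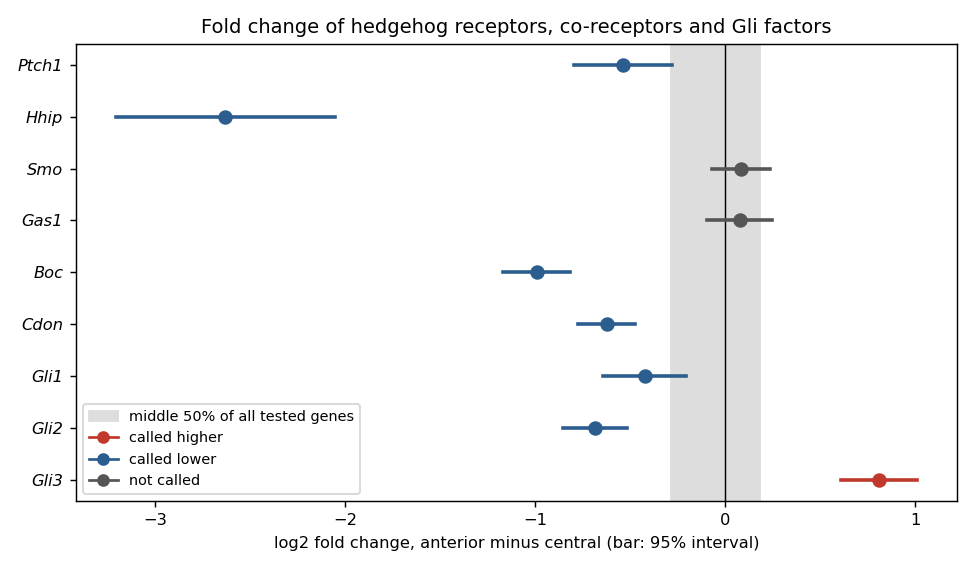
Log2 fold change of anterior over central cells for each gene, with its 95% interval from the edgeR fit. The grey band holds the middle 50% of all tested genes, from -0.29 to 0.18; Hhip lies farthest from it at -2.63 and Gli3 is the gene above it at 0.81.

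Promoter sequence is shown for genes that fell (Ptch1, Hhip and Gli2) and for Smo, which was not called, so that the receptor, antagonist, Gli factor and transducer can be compared. Each is the 250 bases before a RefSeq transcription start (GRCm38.p6), written 5′ to 3′ on the gene's strand, with matches to GGGTGG or its reverse complement CCACCC, the core of the Gli binding motif, in capitals.
Ptch1, chr13:63565736-63565985, minus strand: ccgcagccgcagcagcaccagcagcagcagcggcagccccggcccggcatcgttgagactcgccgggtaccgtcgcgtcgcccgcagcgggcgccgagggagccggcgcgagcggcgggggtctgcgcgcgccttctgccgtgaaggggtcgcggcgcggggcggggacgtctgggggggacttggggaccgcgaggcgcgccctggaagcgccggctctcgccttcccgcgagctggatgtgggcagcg
Hhip, chr8:80058009-80058258, minus strand: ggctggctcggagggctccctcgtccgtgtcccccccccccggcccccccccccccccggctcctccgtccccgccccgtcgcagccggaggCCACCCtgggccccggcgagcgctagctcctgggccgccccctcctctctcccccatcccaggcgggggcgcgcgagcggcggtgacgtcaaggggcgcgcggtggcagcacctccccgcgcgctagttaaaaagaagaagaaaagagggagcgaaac
Gli2, chr1:119053620-119053869, minus strand: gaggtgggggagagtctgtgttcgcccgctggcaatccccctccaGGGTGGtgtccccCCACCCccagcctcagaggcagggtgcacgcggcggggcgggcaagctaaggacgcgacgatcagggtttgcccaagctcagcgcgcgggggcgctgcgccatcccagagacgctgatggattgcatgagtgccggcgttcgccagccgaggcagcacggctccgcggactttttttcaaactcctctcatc
Smo, chr6:29735247-29735496, plus strand: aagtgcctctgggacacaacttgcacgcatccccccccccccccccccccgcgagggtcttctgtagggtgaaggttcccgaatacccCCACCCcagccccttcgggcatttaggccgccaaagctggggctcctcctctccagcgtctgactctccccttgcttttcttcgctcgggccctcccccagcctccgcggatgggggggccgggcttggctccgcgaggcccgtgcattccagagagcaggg
RefSeq windows of this kind were found for 7 of the 9 genes, all but Gli1 and Boc. The full motif TGGGTGGTC, searched on both strands together with its reverse complement GACCACCCA, was in none of the 7 windows and in 0.225% of all 32851 windows of that length. The core, which lies within the full motif, was in 4 of the 7, those of Gli2, Gli3, Hhip and Smo, and in 28.1% of all windows. The Gli2 window held 2 matches, the Hhip and Smo windows 1 each, and the Ptch1 window 0. The core was therefore found beside genes that fell, a gene that rose and a gene that was not called. The Ptch1, Cdon and Gli3 windows lie within the span of their gene in GENCODE M21, and Gli sites outside the windows were not searched.

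Ptch1 (ENSMUSG00000021466.12, chr13:63508328-63573598, minus strand, GRCm38) encodes the ligand receptor that represses Smoothened. It measured 208 and 187 CPM in anterior replicates 1 and 2, and 249.6 and 323 CPM in central replicates 1 and 2. Both anterior libraries lay below both central ones, and the central libraries differed more from each other than the anterior ones did. The log2 fold change was -0.54, with a 95% interval of -0.80 to -0.28 and an edgeR adjusted p-value of 0.0102. Leaving out 1 library at a time moved it between -0.71 and -0.34, with the call retained in all 4 fits.

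Hhip (ENSMUSG00000064325.4, chr8:79965851-80058006, minus strand) encodes the membrane-anchored antagonist that sequesters hedgehog ligands. It was the least abundant of the 9 genes, with 79 and 55 counts in anterior replicates 1 and 2 against 339 and 497 counts in central replicates 1 and 2. These counts correspond to 2.37 and 1.87 CPM against 11.01 and 15.4 CPM, well apart despite the spread within central cells. The fall was 6.19-fold, with a log2 fold change of -2.63 (95% interval -3.20 to -2.05, edgeR adjusted p-value 0.000154). Hhip was also lower relative to Ptch1. Its level per kb of exon was 0.0178 and 0.0157 of that of Ptch1 in anterior libraries and 0.0689 and 0.0743 in central ones. With 2 libraries against 2, an exact two-sided permutation test of such a ratio cannot go below 0.333, the value found here.

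Smo (ENSMUSG00000001761.7, chr6:29735503-29761365, plus strand) encodes the seven-pass membrane protein that carries the signal into the cell. Its level was 331 and 322 CPM in anterior cells and 294 and 322 CPM in central cells, so that the populations overlapped. The log2 fold change was 0.08 with a 95% interval of -0.07 to 0.23 (edgeR adjusted p-value 0.420). This interval covers the spread in the fit and does not show that the levels are equal. The ratio of Ptch1 to Smo per kb of exon was 0.248 and 0.230 in anterior cells and 0.336 and 0.398 in central cells. The receptor was thus scarcer relative to the protein it represses in both anterior libraries, at the message level (exact permutation p = 0.333, the smallest this design allows).

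The co-receptors did not move together. Boc (ENSMUSG00000022687.12, chr16:44485049-44558897, minus strand), an immunoglobulin and fibronectin repeat protein that binds ligand, measured 73.3 and 80.6 CPM in anterior libraries and 159 and 147 CPM in central ones. Every anterior value was far below every central value, and replicates were close. Boc fell 1.99-fold, with a log2 fold change of -0.99 (95% interval -1.17 to -0.81, edgeR adjusted p-value 4.83e-05), the smallest adjusted p-value of the 9 genes.

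Cdon (ENSMUSG00000038119.15, chr9:35421128-35507652, plus strand), the paralog of Boc with a similar domain structure, measured 97.3 and 101 CPM against 155 and 151 CPM. Replicates differed by less than 0.06 on the log2 scale in each population. Its fall was smaller than that of Boc, at a log2 fold change of -0.62 (95% interval -0.77 to -0.47, edgeR adjusted p-value 0.000275). The Cdon to Boc ratio per kb of exon was 0.765 and 0.725 in anterior cells and 0.563 and 0.591 in central cells, without overlap (exact permutation p = 0.333).

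Gas1 (ENSMUSG00000052957.8, chr13:60174405-60177365, minus strand), a gene of a single exon that encodes a lipid-anchored surface protein, measured 341 and 361 CPM in anterior cells and 354 and 312 CPM in central cells. The libraries of the populations interleaved. The log2 fold change was 0.08 (95% interval -0.10 to 0.25, edgeR adjusted p-value 0.524), and without central replicate 2 it was -0.0092. The fold changes of Boc and Cdon lay outside that interval.

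Among the Gli factors, Gli1 and Gli2 fell while Gli3 rose. Gli1 (ENSMUSG00000025407.7, chr10:127329882-127341974, minus strand), an activator whose transcription depends on the signal, measured 89.1 and 82.0 CPM in anterior cells and 105 and 125 CPM in central cells. The groups were separate, with the libraries nearest to each other at 89.1 and 105 CPM. The log2 fold change was -0.42 (95% interval -0.64 to -0.21, edgeR adjusted p-value 0.0135). Without anterior replicate 2 it was -0.36 and was no longer called (adjusted p-value 0.0788). In GENCODE M21, 62 exonic bases of Gli1, 1.24% of its exons, overlap Arhgap9 on the opposite strand. Gli1 was the one gene of the 9 whose exons overlapped another gene of the count table. Exons of Gas1, Gli1, Gli3 and Hhip also overlap opposite-strand genes that are absent from the count table. The largest such overlap is that of Gas1 with Gm48488, at 589 bases or 19.9% of its exon.

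Gli2 (ENSMUSG00000048402.14, chr1:118834132-119053619, minus strand), the main activator in many tissues, measured 77.0 and 83.0 CPM in anterior cells against 126 and 132 CPM in central cells. Replicates were close in both populations. It fell 1.61-fold, with a log2 fold change of -0.69 (95% interval -0.85 to -0.52, edgeR adjusted p-value 0.000293).

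Gli3 (ENSMUSG00000021318.15, chr13:15463235-15730026, plus strand), the main source of Gli repressor in the limb, measured 314 and 379 CPM in anterior cells and 197 and 199 CPM in central cells. Both anterior libraries exceeded the central ones, and the spread was in the anterior population. The rise was 1.75-fold, with a log2 fold change of 0.81 (95% interval 0.61 to 1.01, edgeR adjusted p-value 0.00034).

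Because Gli3 and the other factors moved in opposite directions, the composition of the Gli messages differed while their sum did not separate the populations. Levels were compared between genes as CPM per kb of exon, using the merged exons of GENCODE M21. The summed level of Gli1, Gli2 and Gli3 was 61.8 and 68.0 CPM per kb in anterior libraries and 59.75 and 64.9 in central ones, with overlap. Gli3 made up 53.0% and 58.1% of this sum in anterior libraries and 34.3% and 31.9% in central ones. The Gli2 share was 18.1% and 17.8% against 30.6% and 29.6%, and the Gli1 share was 28.9% and 24.1% against 35.1% and 38.5%. The ratio of Gli3 to Gli2 was 2.92 and 3.27 in anterior cells and 1.12 and 1.08 in central cells. Shares of one sum are not independent of each other, and the exact permutation p for each was 0.333.

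The co-receptor messages also differed in composition, and here the sum of Boc, Cdon and Gas1 did not overlap, at 144 and 153 CPM per kb in anterior libraries and 175 and 158 in central ones (exact permutation p = 0.333). Gas1, itself not called, was 79.8% and 79.6% of the summed Boc, Cdon and Gas1 level per kb in anterior libraries, against 68.2% and 66.7% in central ones. The Boc share was 11.4% and 11.8% in anterior cells and 20.4% and 20.9% in central cells. Cdon held 8.74% and 8.57% in anterior cells and 11.5% and 12.4% in central cells. Gas1 was therefore the predominant co-receptor message in all 4 libraries.

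**Figure D3:**
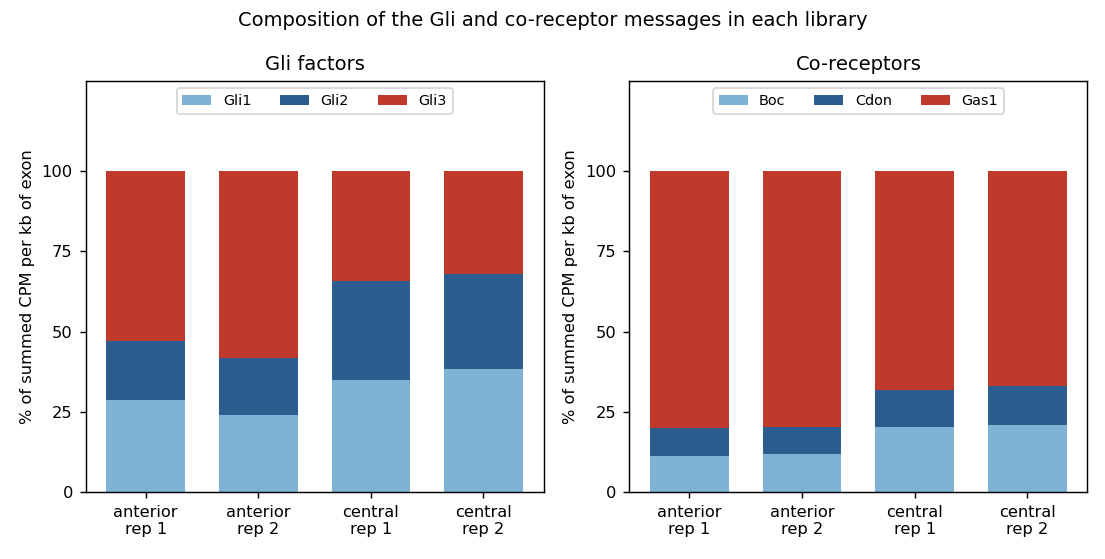
Share of each Gli factor (left) and each co-receptor (right) in the summed level of its group, in percent of CPM per kb of exon, for each library. Gli3 takes 53.0% and 58.1% of the Gli sum in anterior libraries against 34.3% and 31.9% in central ones, and Gas1 takes over 66% of the co-receptor sum in every library.

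Within a population, the order of levels per kb of exon was similar at both ends. Gas1 was the most abundant, at a mean of 118.5 CPM per kb in anterior and 112.5 in central cells, followed by Smo at 58.05 and 54.8. In anterior cells Gli3 came next at 36.1, then Boc at 17.3 and Gli1 at 17.1, whose libraries overlapped, then Ptch1 at 13.9, Cdon at 12.9 and Gli2 at 11.65. In central cells Boc was in the third place at 34.4, followed by Gli1 at 23.0. Gli3 at 20.6, Ptch1 at 20.2 and Cdon at 19.8 followed, and neighbours among these overlapped. Gli2 at 18.7 lay below Cdon in both central libraries. Hhip was the lowest in both populations, at 0.234 and 1.45 CPM per kb. Merged exons of all annotated transcripts can exceed the length of the transcript in use, which would lower the level per kb.

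Replicates of a population differed more for some of these genes than for others. The absolute log2 difference between the central replicates was 0.48 for Hhip, 0.37 for Ptch1 and 0.25 for Gli1, against a median of 0.148 over all tested genes. For these 3 genes, all known to be induced by hedgehog signalling, the higher library was replicate 1 in anterior cells and replicate 2 in central cells, and Smo had the same order with smaller differences. Between the anterior replicates, Hhip differed by 0.33, Gli3 by 0.27, Ptch1 by 0.15 and Gli1 by 0.12, where the median over all tested genes was 0.122. Shh itself differed more, at 27.4 and 11.7 CPM in anterior replicates 1 and 2 and at 13.2 and 12.2 CPM in central replicates 1 and 2. Its log2 fold change of 0.63 was not called (edgeR adjusted p-value 0.203), and without anterior replicate 2 it was 1.11 and called (adjusted p-value 0.00032) whereas without anterior replicate 1 it was -0.11. The library with the most Shh, anterior replicate 1, had less Ptch1, Gli1 and Hhip than either central library. Within anterior cells, however, replicate 1 had more Shh and also more Ptch1, Gli1 and Hhip than replicate 2. In central cells replicate 1 had slightly more Shh than replicate 2 and less of these 3 genes. A relation of the 3 genes to Shh was not tested.

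**Figure D4:**
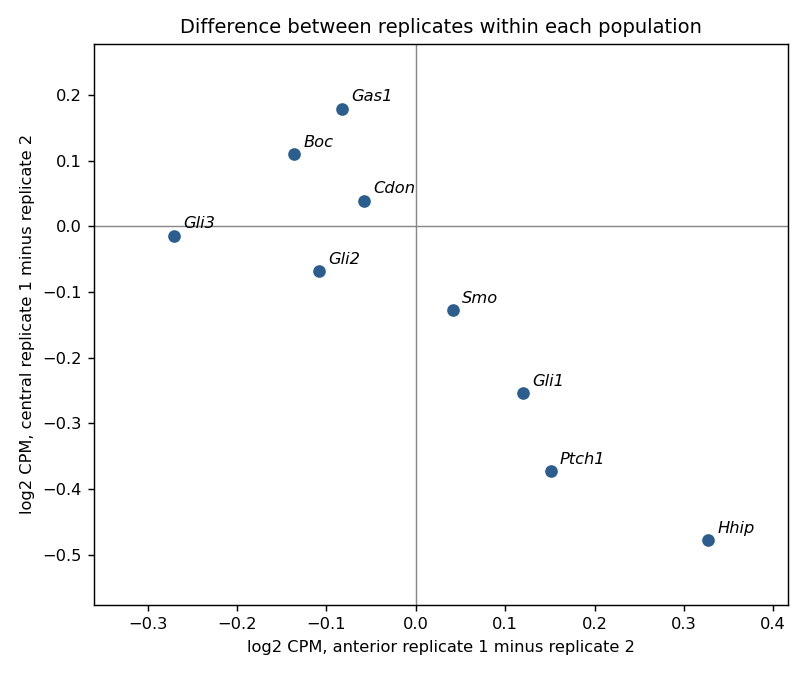
Difference in log2 CPM between replicate 1 and replicate 2 for each of the 9 genes, in anterior cells (horizontal) and in central cells (vertical). Hhip, Ptch1, Gli1 and Smo lie at the lower right, with the higher value in anterior replicate 1 and in central replicate 2.

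The rest of the pathway was examined by fixed lists that exclude the 9 genes. Of 58 further pathway genes in the table, 55 were tested and 16 were called (29.1%, against 22.9% of all tested genes). Of the calls, 5 were higher and 11 lower in anterior cells, against 10.7% and 12.3% of all tested genes. The median log2 fold change was -0.08. Among 24 cytoplasmic and ciliary regulators, 2 were called (8.33%), below the 22.9% of all tested genes. Spop, an adaptor for Gli ubiquitination, was lower (log2 fold change -0.28, edgeR adjusted p-value 0.028). Grk2, a kinase that acts on Smoothened, was higher (0.29, adjusted p-value 0.028). Each of these calls was lost in 3 of the 4 fits that left out 1 library, with adjusted p-values of up to 0.163 for Spop and 0.132 for Grk2. Sufu, the main cytoplasmic inhibitor of Gli proteins, was not called, at 110 and 108 CPM against 104 and 117 CPM (adjusted p-value 0.898). Kif7 and Gpr161 were not called either (adjusted p-values 0.464 and 0.807).

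Cell-surface proteins that bind ligand or its receptors were lower where they were called. Of 8 tested, 4 were called, all as lower (50%), against 12.3% called lower among all tested genes. The glypican Gpc3, a proteoglycan that binds hedgehog ligands, measured 663 and 619 CPM in anterior cells and 1152 and 1069.7 CPM in central cells. Its log2 fold change was -0.79 (edgeR adjusted p-value 9.37e-05). Gpc4 and Gpc6 had log2 fold changes of -1.79 and -0.59 (adjusted p-values 0.00544 and 0.000706). The anterior libraries differed for Gpc4, at 8.54 and 3.48 CPM, and its log2 fold change was -1.29 without anterior replicate 2 and -2.59 without anterior replicate 1.

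Of 6 tested genes for ligands and their release, Scube3 alone was called (16.7%, against 22.9% of all tested genes). This secreted protein of a family that aids ligand release measured 63.7 and 56.2 CPM in anterior cells and 208 and 243 CPM in central cells, a log2 fold change of -1.91 (edgeR adjusted p-value 5.21e-06). The acyltransferase Hhat and the transporter Disp1, which modify and release the ligand, were not called (adjusted p-values 0.407 and 0.663). Ihh had between 10 and 13 counts in each library, and Dhh, Scube2 and the endocytic receptor Lrp2 did not pass the filter on low counts.

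Limb genes known to respond to hedgehog signalling moved in both directions, with 9 of 18 tested called (50%, against 22.9% of all tested genes), 4 higher and 5 lower in anterior cells (10.7% and 12.3% of all tested genes). The median log2 fold change was -0.24. Higher were Hoxd13 (1.59), Mycn (1.15), Hoxd12 (0.98) and Jag1 (0.78), with edgeR adjusted p-values of 0.000404, 7.63e-06, 0.00123 and 0.000114. Lower were Osr1 (-4.87), Cntfr (-3.08), Hand2 (-0.78), Grem1 (-0.54) and Rab34 (-0.26), with adjusted p-values of 4.05e-05, 0.0123, 0.00402, 0.0404 and 0.029. Cntfr was not called by the DESeq2 Wald test (adjusted p-value 0.134), and its anterior libraries had 174 and 10 counts. Its log2 fold change was -2.20 without anterior replicate 2 and -6.12 without anterior replicate 1. Osr1 had 95 and 20 counts in anterior libraries, and its log2 fold change was -4.21 and -6.27 in the corresponding fits. The calls of Grem1 and Rab34 were each lost in 2 of the 4 fits that left out 1 library, with adjusted p-values of up to 0.162 and 0.177. Genes of this list are also controlled by other signals, and their direction did not match that of Ptch1 and Gli1 in 4 of the 9 called cases.

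**Figure D5:**
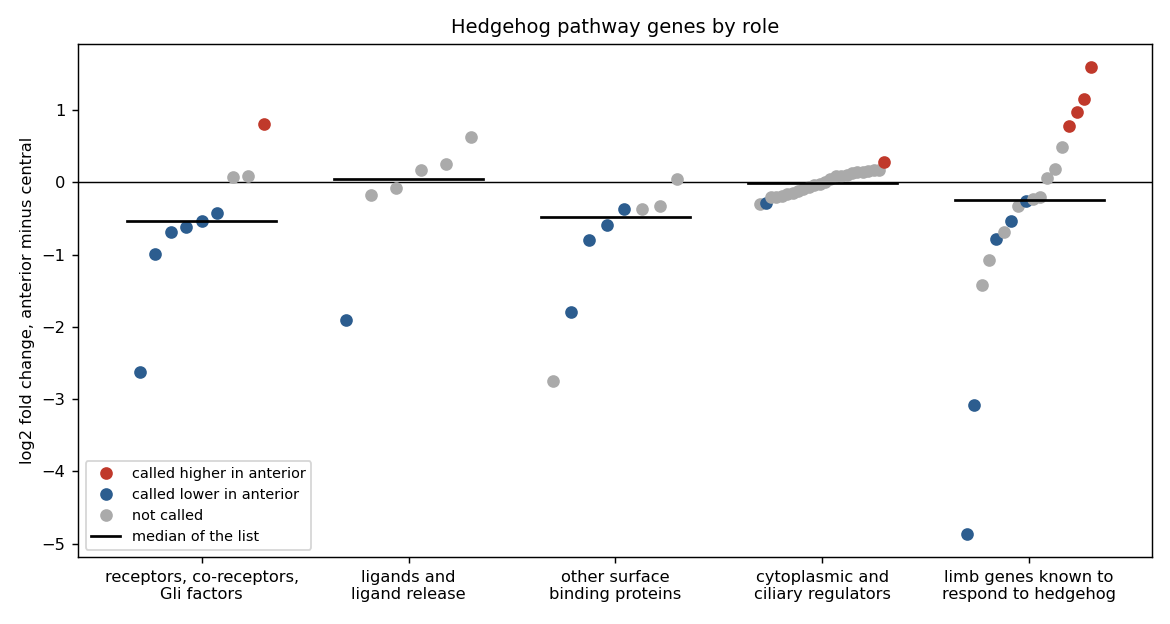
Log2 fold change of anterior over central cells for every tested hedgehog pathway gene, arranged by role, with each gene as a point coloured by its call and the median of each list as a bar. The medians are -0.54 for the 9 genes and -0.0034 for the cytoplasmic and ciliary regulators, where 2 of 24 points are coloured.

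Genes with the most similar pattern over the 4 libraries were found by Euclidean distance of centred log2 CPM among the 9491 genes with a mean of at least 10 CPM over the 4 libraries. Mab21l2 and Csrp1 lay nearest to Boc, at distances of 0.016 and 0.044, with log2 fold changes of -0.98 and -0.98. Nearest to Gli3 were Focad and the adhesion molecule gene Vcam1 (0.049 and 0.061), nearest to Gli2 were the lysosomal sulfatase gene Ids and Dock9 (0.029 and 0.047), and nearest to Cdon were Ndrg4 and the T-box gene Tbx15 (0.033 and 0.041). For Ptch1 the genes were Mcc and Plekhh1 (0.036 and 0.062), and for Gli1 they were Gm5141 and Zfp704 (0.037 and 0.047). Hhip had no gene as close in this pool, where the growth factor gene Pdgfa lay at 0.162 and the retinol transporter gene Stra6 at 0.281. The mean of Hhip itself was below the 10 CPM minimum, so genes at its level were not searched. With 4 libraries in 2 groups, many genes share such a pattern.

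Markers of other cell types differed between the populations along with these genes. For the counts of called markers below, the shares over all tested genes were 12.3% called lower and 10.7% called higher. All 7 myogenic markers were lower in anterior cells, with a summed level of 4.17 and 2.35 CPM against 143 and 142 CPM, and Myog and Pax7 were at 0 counts in both anterior libraries. Of 11 tested chondrogenic markers, 8 were lower, with a sum of 443 and 321 CPM against 1691 and 1283 CPM. Ectoderm markers were lower in 10 of 11, at sums of 10.2 and 11.1 CPM against 58.7 and 199.5 CPM. Endothelial markers were lower in 6 of 10, at 13.6 and 20.1 CPM against 38.2 and 47.9 CPM. Blood markers were higher in 8 of 8 tested, at 3294 and 8400 CPM against 5.97 and 9.48 CPM, with Hba-a1 and Hba-a2 at 0 in all 4 libraries. Limb mesenchyme markers were abundant in every library, at sums of 2261 to 2736 CPM, and 5 of 8 were called, with Msx1, Msx2, Prrx2 and Twist1 higher in anterior cells (log2 fold changes 3.26, 2.80, 1.91 and 0.83) and Pdgfra lower (-1.17). Of the central libraries, replicate 2 had the higher ectoderm, endothelial and blood sums, and also more Ptch1, Gli1 and Hhip. Replicate 1 had the higher chondrogenic and limb mesenchyme sums, and the myogenic sums were close. The part of these cell types in the falls of Hhip, Boc, Cdon, Gli1, Gli2 and Ptch1 and in the rise of Gli3 was not tested.

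Library totals ranged from 30080925 to 33257383 counts, and the 9 genes together took 0.154% to 0.174% of them. In these libraries 3 counts, taken as the floor, amount to 0.090 to 0.100 CPM, below the level of every one of the 9 genes in every library. The labels do not say whether libraries came from separate embryos or pools, so the p-values measure the spread between these samples, which may be technical.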

How the data were processed

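For 4 libraries of sorted hindlimb cells, the authors deposited read counts per gene symbol as whole numbers without normalization. The submitters' processing notes name STAR 2.7.9a, HTSeq, DESeq2 and the build mm10, without their roles; the annotation and strand setting are not given in the sources used here. Of the counts from 1 to 10, 72.8% to 75.6% were even, the pattern of counting both mates of a pair, so a fit on halved counts was run. Groups and replicate numbers came from the sample titles.

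The comparison was fitted in R 4.3.3 with edgeR 4.0.16 (filterByExpr defaults, TMM scaling, quasi-likelihood F test with 2 residual degrees of freedom, Benjamini-Hochberg adjustment over 14610 genes, threshold 0.05). CPM are counts per 1 M, TMM-scaled. A standard error was the absolute log2 fold change divided by the square root of F, and intervals are at 95%, for the spread in the fit. Tests and intervals used the total degrees of freedom of the fit, which add to the residual ones those borrowed across genes. Intervals and floors do not cover duplicate reads. Gene models were from GENCODE M21 (GRCm38) and promoter windows from RefSeq (GRCm38.p6). Named were the 9 genes, the called genes of the pathway lists with some uncalled ones for comparison (some listed genes are not reported here), and the 2 nearest genes of each called gene by log2 CPM (prior count 2). Adrbk1, an older symbol of Grk2, stood in the list beside Grk2 and was not counted. The 9 genes and the lists were chosen with earlier results of these data known. Alternatives were other scalings, DESeq2 1.42.0, limma-voom (limma 3.58.1), other filters, a replicate block, halved counts, removal of blood markers, a threshold of 0.01 and leaving out each library.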

Additional observations from a re-analysis of the deposited data

How the results depend on the processing

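Under the 11 alternatives that kept all 4 libraries, the 9 genes kept their direction, and 7 were called in each except at a threshold of 0.01, where 5 were called and Ptch1 and Gli1 were not. That threshold gave 1690 called genes in the whole table, against 3351, and 11 further pathway genes, against 16. With 1 library left out, which leaves 1 residual degree of freedom and assumes that the lone library varies like the other population, between 2009 (without anterior replicate 2) and 3697 genes were called, 6 to 7 of the 9 genes and 14 to 22 of the further pathway genes. Reversals, both in genes not called, were Gas1 (-0.0092 without central replicate 2, in a range up to 0.17 with other libraries left out) and Shh (-0.11 without anterior replicate 1, in a range up to 1.11); the cause was not tested. Library size alone and upper-quartile factors moved the share of rises among all calls from 46.5% to 40.3% and 39.1%, and shifted the median log2 fold change by -0.03 and -0.04.

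A fit with a replicate block called 3586 genes in the whole table (24.5% of those tested), 7 of the 9 genes and 21 of the further pathway genes. The labels give same-numbered libraries a common number and do not say whether they share embryos or handling. The differences between replicates in anterior and in central cells correlated at 0.046 (Pearson) across 14610 genes, which are not independent. This value does not settle whether the libraries are paired. The block changed the call of none of the 9 genes.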
